A study of Mus musculus with 8 samples.

Results

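The 39 genes described here belong to the interferon response and to class I antigen presentation. They were taken by symbol from the 34399 gene symbols of the deposited count tables, and all 39 were found. By role they comprise 7 sensors, transcription factors and feedback genes, 18 antiviral effectors, 5 genes of the p200 family and the guanylate-binding proteins, 3 immunoproteasome subunits, and 6 genes of peptide transport and the class I molecule. RNA was sequenced from GFP-positive cells sorted from mouse heart ventricles 4 weeks after transverse aortic constriction (TAC), a surgical narrowing of the aorta that overloads the left ventricle. At surgery the mice were 8 to 10 weeks old; tamoxifen was given at 100 mg/kg on 2 days and then in chow at 40 mg/kg. The 8 libraries form 4 groups of 2, and the labels do not say whether a library is 1 animal or a pool, so a p-value here reflects the spread between libraries, which may be technical.

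All groups carried MerCreMer, a Cre recombinase switched on by tamoxifen, and an eGFP reporter in the Rosa locus that is turned on by Cre. In the Postn-Cre control (libraries HK3 and HK4) and the Smad2/3 double knockout (DKO; HK15 and HK16), MerCreMer sat in the periostin (Postn) locus, which is active in activated fibroblasts. In the Tcf21-Cre control (HK6 and HK7) and the Tgfbr1/2 DKO (HK2 and HK4), it sat in the Tcf21 locus, which is active in resident fibroblasts. The Smad2/3 DKO was Smad2 flox/flox and Smad3 flox/flox, and the Tgfbr1/2 DKO was flox/flox for both TGF-beta receptor genes. The labels give no strain and no floxed allele for the controls. The 4 Postn libraries (control and DKO) and the 4 Tcf21 libraries were sequenced in separate runs. Between the 2 knockout comparisons, the effects of run, driver and target cannot be told apart.

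Interferons are secreted when RNA or DNA sensors such as Ifih1 and Ddx58 detect foreign or misplaced nucleic acid. They signal through paired receptors and Janus kinases to Stat and Irf factors, which bind the interferon-stimulated response element (ISRE) or the gamma-activated site (GAS) of their target genes. Among the targets are antiviral proteins and the machinery that cuts proteins into peptides, carries them into the endoplasmic reticulum and loads them on class I molecules for display to T cells. Fibroblasts display class I molecules and respond to interferons.

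Promoter sequence of the members on which the results turn is shown first. RefSeq (GRCm38.p6) promoters of 250 bases upstream of a transcription start were given for 30 of the 39 members. Ifi204 was not among them. The ISRE core, spelled TTTCNNTTTC and searched on both strands, was found for 11 of the 30 (36.7%) and for 3.46% of the 27025 genes with such a window. The GAS, spelled TTCNNNGAA and also searched on both strands, was found for 7 of the 30 (23.3%) and for 8.13% of all genes. A match describes letters and is not a binding site shown by these data. In the next 5 stretches, of 120 bases each on the gene's own strand, capitals mark these motifs: an ISRE core in B2m (chr2:122147528-122147647, plus strand) and upstream of an internal RefSeq start of Ifi203 (chr1:173942493-173942612, minus strand), and a GAS in Ifi202b (chr1:173982893-173983012, minus strand), Irf1 (chr11:53769894-53770013, plus strand) and Isg20 (chr7:78913304-78913423, plus strand). They belong to members that passed a test in at least 1 comparison. A gene was counted if any of its windows held the motif. The Ifi203 window at the annotated gene start (chr1:173942673-173942922) held neither motif. The Ifi203 stretch shown also lies directly upstream of the annotated start of the p200 gene Mndal (chr1:173942491, minus strand).
B2m: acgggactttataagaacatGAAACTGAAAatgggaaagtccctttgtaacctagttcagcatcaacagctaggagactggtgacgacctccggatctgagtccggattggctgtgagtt
Ifi203: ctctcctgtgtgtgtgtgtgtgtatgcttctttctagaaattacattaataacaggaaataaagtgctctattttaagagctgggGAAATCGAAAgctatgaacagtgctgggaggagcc
Ifi202b: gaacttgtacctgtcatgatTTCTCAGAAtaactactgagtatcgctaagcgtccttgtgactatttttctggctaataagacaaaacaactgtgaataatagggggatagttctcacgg
Irf1: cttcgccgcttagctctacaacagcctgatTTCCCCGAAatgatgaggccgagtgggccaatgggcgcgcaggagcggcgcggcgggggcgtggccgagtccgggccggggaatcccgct
Isg20: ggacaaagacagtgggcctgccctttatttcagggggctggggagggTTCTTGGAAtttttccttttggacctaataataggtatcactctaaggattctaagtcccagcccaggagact

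The windows of H2-K1 and H2-D1, the class I heavy chain genes that moved together in the Tgfbr1/2 comparison, held neither motif as spelled. Both held tttcacttct, which differs from the ISRE core as spelled only in its last bases. The windows were alike: 169 of 204 aligned bases were identical (82.8%), with a longest shared run of 47 bases.

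Library totals ran from 21477646 to 32594474 counts, and values are given per 1000000 counts (CPM). A floor of 3 counts lay between 0.092 and 0.1397 CPM. Of 9 fibroblast markers, 8 were above 10 CPM in every library, and the exception, Thy1, was at 6.03 and 6.24 CPM in the Smad2/3 DKO libraries. Postn itself was at 208 and 186 CPM in the Postn-Cre controls and at 1615 and 3076 CPM in the Tcf21-Cre controls. The targeted genes were not lower by the test in total counts: the log2 fold changes were -0.19 for Smad2 and -0.26 for Smad3 (adjusted p = 0.747 and 0.702), and -0.24 for Tgfbr1 and 0.25 for Tgfbr2 (adjusted p = 0.533 and 0.535). Counts over whole genes do not check the loss of single exons. Xist, the RNA of the inactive X chromosome, was at 277 and 75.3 CPM in the Smad2/3 DKO libraries and at 1.07 to 3.65 CPM in the other 6, while the Y-linked Ddx3y was at 56.6 to 222 CPM in all 8. The part of sex in the Smad2/3 comparison cannot be told apart from the knockout.

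Levels of the members spanned more than 3 orders of magnitude. Per kilobase of exon, B2m, the light chain of class I molecules, was highest in every group, at 3428 CPM per kilobase in the Postn-Cre controls, 2156 in the Smad2/3 DKO, 2069 in the Tcf21-Cre controls and 2213 in the Tgfbr1/2 DKO. The genes next in order differed in part between the control groups. In the Postn-Cre controls they were Ifi203 (114 CPM per kilobase), H2-K1 (94) and H2-D1 (83.1), whereas in the Tcf21-Cre controls they were H2-D1 (215), H2-K1 (147) and the small mitochondrial protein gene Ifi27l2a (144). Mx1, an antiviral GTPase, was the lowest member in the Postn-Cre controls, with 2 and 5 counts.

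**Figure D1:**
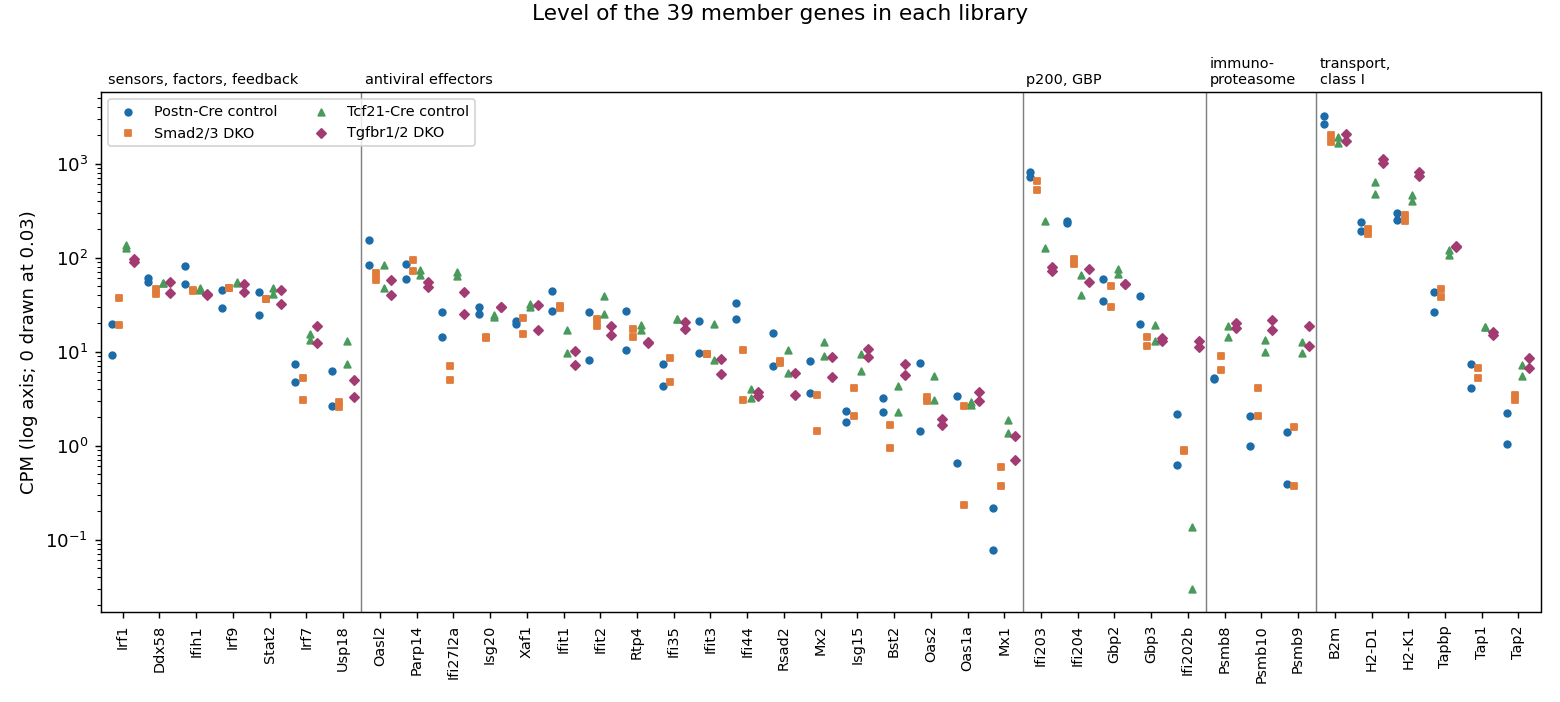
Level of each of the 39 genes in each library, in CPM on a log axis, with 1 point per library, coloured by group and ordered within each role by mean level. B2m lies between 1685 and 3240 CPM in all 8 libraries, and Ifi202b stands out in the Tgfbr1/2 DKO, at 12.9 and 11.2 CPM.

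In the Smad2/3 comparison, the DNA sensor gene Ifi204 fell, and no other member passed the test. Of 38 members tested (Mx1 was too low), 1 fell and 0 rose by edgeR, against 0.844% and 0.451% of the 15760 genes tested. At an unadjusted p below 0.05, 9 members were lower and 0 higher, against 7.35% and 6.21% of all genes. DESeq2 called 7 members lower and 0 higher, against 2.76% and 1.96% of all genes. The median log2 fold change of the members was -0.37, against 0.01 over all genes. In 13 members both DKO libraries lay below both controls and in 3 above, and in 22 the groups overlapped; of all genes, 18.9% lay below and 25.4% above.

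In the Tgfbr1/2 comparison, the class I heavy chains H2-K1 and H2-D1 and the p200 gene Ifi202b rose, and the p200 gene Ifi203 fell. All 39 members were tested, and 3 rose and 1 fell, against 2.64% and 1.31% of 16658 genes. At an unadjusted p below 0.05, 5 members were higher and 6 lower (all genes 11.3% and 8.73%), and DESeq2 called 3 higher and 3 lower (all genes 4.49% and 2.56%). The median of the members was -0.11 and that of all genes -0.01. Without control HK6, 1 member rose and 3 fell; without DKO HK2, 1 rose and 1 fell; without DKO HK4, 1 rose and 0 fell. For fits with a library left out, the share of all genes called was not counted. Both DKO libraries lay above both controls in 8 members and below them in 15, with overlap in 16. Of all genes, 21.8% lay above and 29.4% below.

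**Figure D2:**
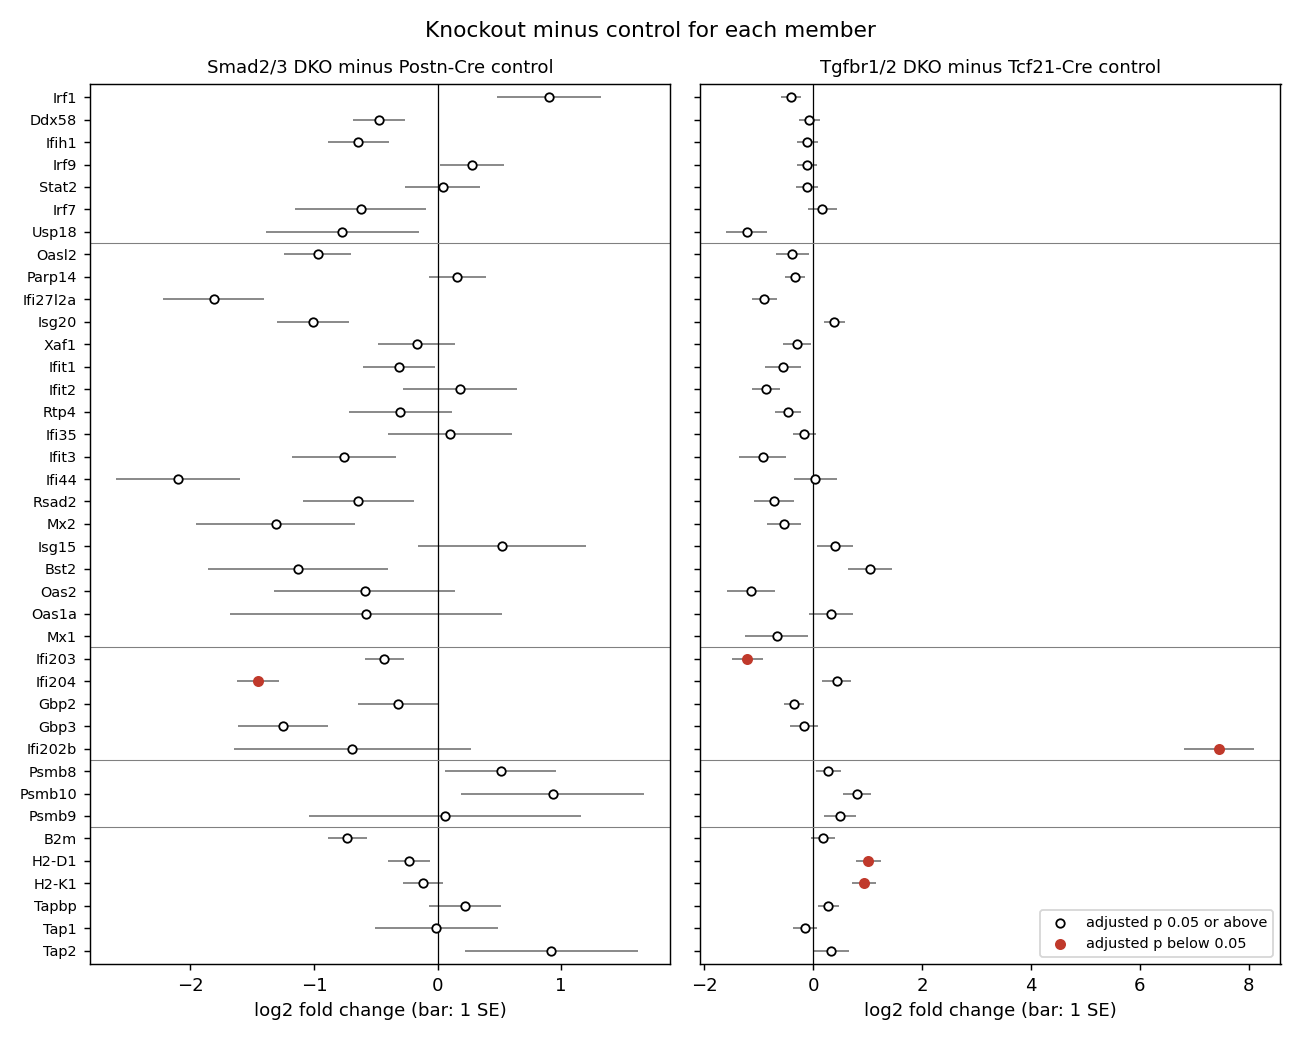
Log2 fold change of knockout against control for each member, with bars of 1 standard error (SE) and filled points for an adjusted p below 0.05; the axes of the panels differ in range. The left panel holds 1 filled point, Ifi204 at -1.45, and the right panel 4, of which Ifi202b lies at 7.46 and Ifi203 at -1.21.

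Among the 7 sensors, factors and feedback genes, none passed the test in either knockout comparison. By unadjusted p, 1 was lower in the Smad2/3 comparison (all genes 7.35%), and none by DESeq2. In the Tgfbr1/2 comparison 2 were lower by unadjusted p (all genes 8.73%). DESeq2 called Usp18, which removes the ubiquitin-like Isg15 from proteins, lower there (all genes 2.56%). Ifih1 and Ddx58, the RNA sensors MDA5 and RIG-I, were at 40.3 to 80.7 CPM in all libraries. Ifih1 was at 80.7 and 52.7 CPM in the Postn-Cre controls, 44 and 45.4 in the Smad2/3 DKO, 45.5 and 47.1 in the Tcf21-Cre controls, and 40.3 and 40.8 in the Tgfbr1/2 DKO. Ddx58 was at 60.8 and 55.2, 46.8 and 40.6, 54 and 53.8, and 55 and 42.5 CPM in the same order. Both Smad2/3 DKO libraries were below both controls for each gene, but the log2 fold changes of -0.64 ± 0.25 and -0.47 ± 0.21 (SE) did not pass (adjusted p = 0.274 and 0.375).

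Irf1, a transcription factor that activates class I and immunoproteasome genes, differed between the Postn and the Tcf21 libraries, which differ in driver and run. It measured 19.6 and 9.22 CPM in the Postn-Cre controls and 37.4 and 19.1 CPM in the Smad2/3 DKO, against 127 and 135 CPM in the Tcf21-Cre controls and 97.5 and 89.1 CPM in the Tgfbr1/2 DKO. Every Tcf21 library was thus above every Postn library, and the Postn groups overlapped. The share of all genes with such a separation was not counted, here or for the members below. Between the controls, 16.6% of all genes were called higher and 17.3% lower in the Postn-Cre group. The knockout changes were 0.90 ± 0.42 (adjusted p = 0.383) and -0.41 ± 0.18 (adjusted p = 0.231). Of the other 4 genes, Irf9 and Stat2, transcription factors that act at the ISRE, were at 24.3 to 54.4 CPM, and Irf7 and Usp18 at 2.55 to 18.7 CPM.

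In the Smad2/3 comparison none of the 17 antiviral effectors tested passed. Of them, 4 were lower at an unadjusted p below 0.05 and also by DESeq2 (all genes 7.35% and 2.76%). The median of the 17 was -0.59, and the median of all members depended on control HK3, as given below. The 4 were Ifi44, Ifi27l2a, Oasl2 and Isg20. Ifi44, an interferon-induced protein, was at 33.2 and 22.2 CPM in the Postn-Cre controls, 3.09 and 10.3 in the Smad2/3 DKO, 3.19 and 4.04 in the Tcf21-Cre controls and 3.68 and 3.37 in the Tgfbr1/2 DKO. Its Postn-Cre controls were above all 6 other libraries, and the change of -2.10 ± 0.50 had an adjusted p = 0.0786. Ifi27l2a measured 26.5 and 14.2 CPM in its Postn-Cre controls against 7.05 and 5.03 CPM in the Smad2/3 DKO (-1.81 ± 0.41, adjusted p = 0.0646). Its values were 69.5 and 63.8 CPM in the Tcf21-Cre controls and 43 and 25.1 CPM in the Tgfbr1/2 DKO (-0.90 ± 0.23, adjusted p = 0.0565). In each comparison its groups were apart, with the DKO libraries lower.

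Oasl2, a protein of the oligoadenylate synthetase family, was at 153 and 82.7 CPM in the Postn-Cre controls and 67.8 and 57.7 in the Smad2/3 DKO (-0.97 ± 0.27, adjusted p = 0.116), and at 47.3 and 84 CPM in the Tcf21-Cre controls and 57.1 and 40.1 in the Tgfbr1/2 DKO. Its spread within the controls was wide, with HK3 well above HK4. Isg20, an exonuclease that degrades RNA, was at 25.4 and 29.6 CPM in the Postn-Cre controls and 14.3 and 14.1 in the Smad2/3 DKO (-1.01 ± 0.29, adjusted p = 0.127), and at 24.4 and 23.4 CPM in the Tcf21-Cre controls and 29.5 and 29.8 in the Tgfbr1/2 DKO (0.39 ± 0.20, adjusted p = 0.316). The Smad2/3 DKO libraries were the 2 lowest of the 8. Parp14, an ADP-ribosyltransferase, passed in no comparison: 84.5 and 58.5 CPM, 93.8 and 72.7, 74.4 and 64.7, and 55.1 and 49.1 in the Postn-Cre controls, Smad2/3 DKO, Tcf21-Cre controls and Tgfbr1/2 DKO.

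Among the 18 effectors, none passed in the Tgfbr1/2 comparison. By unadjusted p, 3 were lower and 1 higher (all genes 8.73% and 11.3%). DESeq2 called Ifi27l2a lower (all genes 2.56%), and the median of the 18 was -0.42. Ifit1, which binds foreign RNA, was at 43.8 and 27.1 CPM in the Postn-Cre controls, 29.1 and 30.4 in the Smad2/3 DKO, 9.73 and 16.8 in the Tcf21-Cre controls and 10.2 and 7.28 in the Tgfbr1/2 DKO. Every Postn library was above every Tcf21 library. The ubiquitin-like modifier Isg15 was ordered the other way, at 2.35 and 1.78 CPM, 4.11 and 2.05, 6.17 and 9.34, and 8.74 and 10.7 in the same groups. Ifi35, an interferon-induced leucine zipper protein, was at 7.42 and 4.35, 8.5 and 4.7, 22.4 and 22.4, and 20.7 and 17.3 CPM. Mx1 was at 0.0769 and 0.218, 0.588 and 0.372, 1.37 and 1.88, and 1.26 and 0.701 CPM. For these 3 genes, the Tcf21 libraries were all above the Postn libraries, and the knockout groups overlapped their controls or differed without passing. The 9 effectors not given by library (Ifit2, Ifit3, Oas1a, Oas2, Mx2, Bst2, Rsad2, Xaf1 and Rtp4) ranged from 0.235 CPM for Oas1a to 39 CPM for Ifit2.

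The p200 family, DNA-binding proteins encoded in a cluster on chromosome 1, held 3 of the 5 calls of the knockout comparisons. Ifi204 (chromosome 1, 173747293 to 173766943), which senses DNA, measured 233 and 244 CPM in the Postn-Cre controls against 85 and 96.7 CPM in the Smad2/3 DKO. The libraries within each group were close, and the gene fell by 1.45 ± 0.17 on the log2 scale (adjusted p = 0.00232, n = 2 per group), a 2.73-fold decrease. Among the Tcf21 libraries it measured 64.9 and 40.3 CPM in the controls against 55.6 and 76 CPM in the Tgfbr1/2 DKO (0.43 ± 0.26, adjusted p = 0.406), where the groups overlapped. Its change passed in all 11 alternative analyses, at -1.35 to -1.55 on the log2 scale.

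Ifi203 (chromosome 1, 173920407 to 173942672) was the most abundant p200 member. It was at 722 and 812 CPM in the Postn-Cre controls and 527 and 661 in the Smad2/3 DKO (-0.43 ± 0.16, adjusted p = 0.257), and at 245 and 128 CPM in the Tcf21-Cre controls and 71.6 and 78.7 in the Tgfbr1/2 DKO. The latter decrease, -1.21 ± 0.28, lay at the threshold (adjusted p = 0.04997). It was -0.73 without the higher control HK6 (adjusted p = 0.115), -1.07 without DKO HK2 (adjusted p = 0.184) and -1.35 without DKO HK4 (adjusted p = 0.1), and it passed in 4 of 11 alternatives. Ifi203 overlaps Mndal on the same strand over 22085 bases, and 12.4% of its 50-base stretches also occur in other genes, for Ifi204 20%, so counts may be split within the cluster.

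Ifi202b (chromosome 1, 173962568 to 173982744), whose level is known to differ between inbred mouse strains, was nearly absent except in the Tgfbr1/2 DKO. It was at 0.615 and 2.18 CPM in the Postn-Cre controls, 0.901 and 0.885 in the Smad2/3 DKO, 0.137 and 0 in the Tcf21-Cre controls, and 12.9 and 11.2 in the Tgfbr1/2 DKO. The Tgfbr1/2 DKO libraries held 755 counts against 4 in their controls, a ratio of 176 after scaling to library totals (95% counting interval 68.6 to 649). The test gave an adjusted p = 0.000336, and Ifi202b passed in all 11 alternatives; its fitted log2 fold change of 7.46 depends on the prior count. None of its 50-base stretches occurs in another gene. The labels give no strain, so the parts of strain background and knockout in its rise cannot be told apart. The same limit holds for the changes of Ifi203, Ifi204 and Aim2, which lie in the same cluster on chromosome 1.

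Gbp2 and Gbp3, guanylate-binding proteins (GTPases that act on intracellular pathogens), did not pass in either knockout comparison. Gbp2 was at 59.9 and 34.8 CPM in the Postn-Cre controls, 49.7 and 29.8 in the Smad2/3 DKO, 66.9 and 74.9 in the Tcf21-Cre controls and 52.6 and 53 in the Tgfbr1/2 DKO. Gbp3 was at 39.4 and 19.7, 14.2 and 11.6, 19.1 and 13.1, and 13 and 13.9 CPM. In the Smad2/3 comparison Gbp3 was lower in both DKO libraries, with a change of -1.25 ± 0.36 (adjusted p = 0.133).

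**Figure D3:**
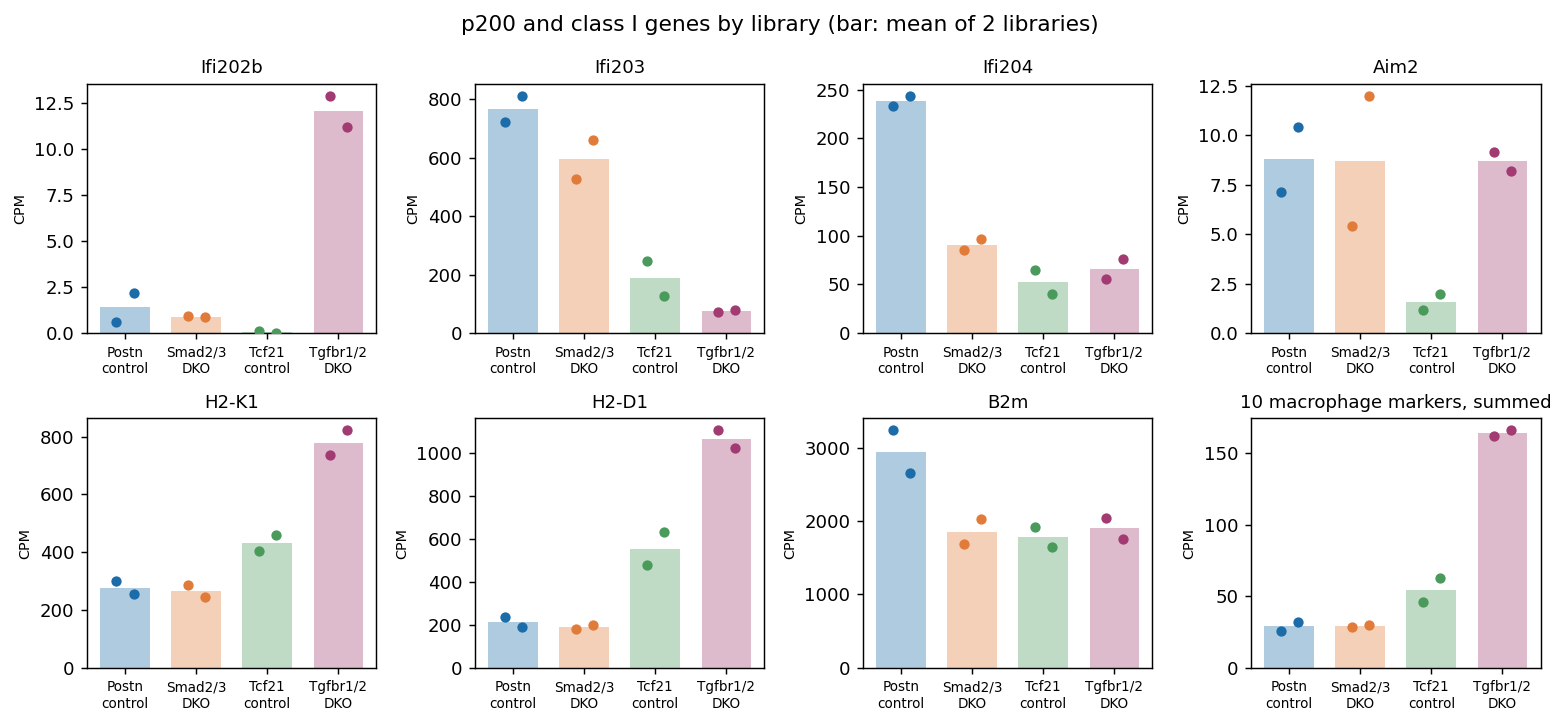
CPM of 4 p200 family genes, 3 class I genes and the sum of 10 macrophage markers by group, with 1 point per library and bars at the mean of the 2 libraries. Ifi204 is apart from its control only in the Smad2/3 DKO, and in the Tgfbr1/2 DKO Ifi202b, H2-K1 and H2-D1 are high together with the macrophage markers, which reach 162 and 166 CPM.

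The 3 immunoproteasome subunits, which replace constitutive subunits and favour peptides that class I molecules can hold, were low in the Postn libraries. Psmb8 was at 5.12 and 5.18 CPM in the Postn-Cre controls, 8.93 and 6.33 in the Smad2/3 DKO, 18.7 and 14.2 in the Tcf21-Cre controls and 20 and 17.9 in the Tgfbr1/2 DKO. Psmb9 was at 1.38 and 0.392, 1.57 and 0.372, 9.56 and 12.7, and 18.5 and 11.5 CPM. Psmb10 was at 2.08 and 1, 4.11 and 2.05, 9.97 and 13.4, and 21.9 and 16.9 CPM. All were higher in every Tcf21 library than in every Postn library, a separation that was not counted over all genes. Neither knockout comparison called any of the 3 by edgeR or DESeq2; by unadjusted p, Psmb10 was higher in the Tgfbr1/2 comparison (0.80 ± 0.26, adjusted p = 0.125).

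In peptide transport and class I, 2 of the 6 genes, the heavy chains H2-K1 and H2-D1, rose in the Tgfbr1/2 comparison (all genes 2.64%). None passed in the Smad2/3 comparison. H2-K1 (chromosome 17, 33996017 to 34000347) was at 299 and 254 CPM in the Postn-Cre controls and 285 and 245 in the Smad2/3 DKO, and at 404 and 460 CPM in the Tcf21-Cre controls and 735 and 822 in the Tgfbr1/2 DKO. H2-D1 (chromosome 17, 35262730 to 35267499) was at 237 and 191, 180 and 200, 477 and 634, and 1107 and 1022 CPM. The Smad2/3 groups overlapped for both genes, and the Tgfbr1/2 DKO libraries were above all others. Against the Tcf21-Cre controls H2-K1 rose 1.91-fold (0.93 ± 0.22 on the log2 scale, adjusted p = 0.0446) and H2-D1 rose 2.01-fold (1.01 ± 0.23, adjusted p = 0.0415).

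Both rises lay near the threshold. For H2-K1 the adjusted p was 0.169 without control HK6, 0.0809 without control HK7, 0.0673 without DKO HK2 and 0.248 without DKO HK4, and it was 0.0508 with relative log expression (RLE) factors and 0.0621 without robust estimation. For H2-D1 it was 0.164 without HK6, 0.103 without HK2, 0.147 without HK4 and 0.0601 without robust estimation. With a library left out, the change stayed between 0.78 and 1.10 for H2-K1 and between 0.78 and 1.30 for H2-D1. H2-K1 and H2-D1 share 9.63% and 12.8% of their 50-base stretches with other class I genes, so reads may be divided among these.

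B2m (chromosome 2, 122147686 to 122153083) was at 3240 and 2655 CPM in the Postn-Cre controls, 1685 and 2024 in the Smad2/3 DKO, 1917 and 1641 in the Tcf21-Cre controls and 2045 and 1761 in the Tgfbr1/2 DKO. Both Smad2/3 DKO libraries were below their controls, with a change of -0.73 ± 0.16 just outside the threshold (adjusted p = 0.0572); B2m passed with DESeq2, with RLE factors, without the low-count filter and without control HK4. Its Tgfbr1/2 groups overlapped (0.18 ± 0.22, adjusted p = 0.704). Tapbp, the tapasin that loads peptides onto class I molecules, was at 43.4 and 26.1, 46.9 and 37.7, 106 and 121, and 132 and 130 CPM in the Postn-Cre controls, Smad2/3 DKO, Tcf21-Cre controls and Tgfbr1/2 DKO. Tap1, a subunit of the peptide transporter, was at 7.38 and 4.05, 5.21 and 6.66, 18.4 and 18.2, and 16.3 and 15 CPM. Neither passed in a knockout comparison, and both were higher in all Tcf21 libraries. Tap2, the other transporter subunit, was ordered the same way, at 5.55 to 8.56 CPM against 1.04 to 3.49 CPM. Tapbp overlaps Zbtb22 on the same strand over 3422 bases. Other genes share 23.2% of the 50-base stretches of Tapbp, so its counts may be split.

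Other cell types were read beside these changes. The 10 macrophage markers summed to 25.6 and 32.2 CPM in the Postn-Cre controls, 28.4 and 30 in the Smad2/3 DKO, 46 and 63 in the Tcf21-Cre controls and 162 and 166 in the Tgfbr1/2 DKO. Of the 10, 4 (Itgam, Cd14, Csf1r and Emr1) rose in the Tgfbr1/2 DKO, and the median change was 1.79. Lyz2, the most abundant, measured 9.9 and 26.6 CPM in Tcf21-Cre controls against 82.5 and 90.6 CPM in the Tgfbr1/2 DKO (2.31, adjusted p = 0.103), while Cd68 was at 22.1 and 13.8, and 18.4 and 15.5 CPM. No marker was at 0 in all 8 libraries; C1qa was at 0 in the 4 Postn libraries, and Emr1 and Ptprc in both Smad2/3 DKO libraries. The 11 endothelial markers summed to 446 and 401 CPM in the Tcf21-Cre controls and 532 and 511 CPM in the Tgfbr1/2 DKO; 9 of the 11 were above 0, with a median of 0.61, and Eng rose (0.78, adjusted p = 0.0423). The part of macrophage and endothelial RNA in the rise of H2-K1, H2-D1 and Ifi202b was not tested. The 6 dendritic cell markers summed to 54.9 and 41.9 CPM in the Tcf21-Cre controls and 41 and 42.5 CPM in the Tgfbr1/2 DKO. In the Postn libraries they summed to 94.2 to 123 CPM. These sums were mostly Zbtb46. Of the 6 markers, 3 were under 1 CPM in all 8 libraries, and only 1 was above 10 CPM in all 8. In bulk libraries, fewer cells of a type and less RNA per cell cannot be told apart. The 10 lymphocyte markers summed to 3.68 to 8.96 CPM over the 8 libraries.

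The Smad2/3 median depended on 1 control library. HK3 was above HK4 in 32 of the 38 members with at least 1 CPM in either control (median log2 ratio 0.75), against 50.4% of 14191 genes (median 0.00). Without HK3 the Smad2/3 median of the members was 0.09, and 18 of 39 members were below 0, against 26 of 38 with all 4 libraries. Without HK4 it was -0.58, without HK15 -0.51 and without HK16 -0.35. The number of members called lower was 1 without HK3 or HK15, 2 without HK16 and 5 without HK4. The share of all genes called in these fits was not counted. HK3 also had the higher sum of 11 endothelial markers, 452 CPM against 236 in HK4 and 225 and 145 in the Smad2/3 DKO. The 6 pericyte markers summed to 1474 CPM in HK3, against 812 in HK4 and 979 and 731 in the Smad2/3 DKO. The pericyte marker Kcnj8 fell in the Smad2/3 comparison (-3.17, adjusted p = 0.0177), and no endothelial marker passed there. No endothelial or pericyte marker was at 0 in all libraries, and the part of these cells in the members' levels was not tested.

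**Figure D4:**
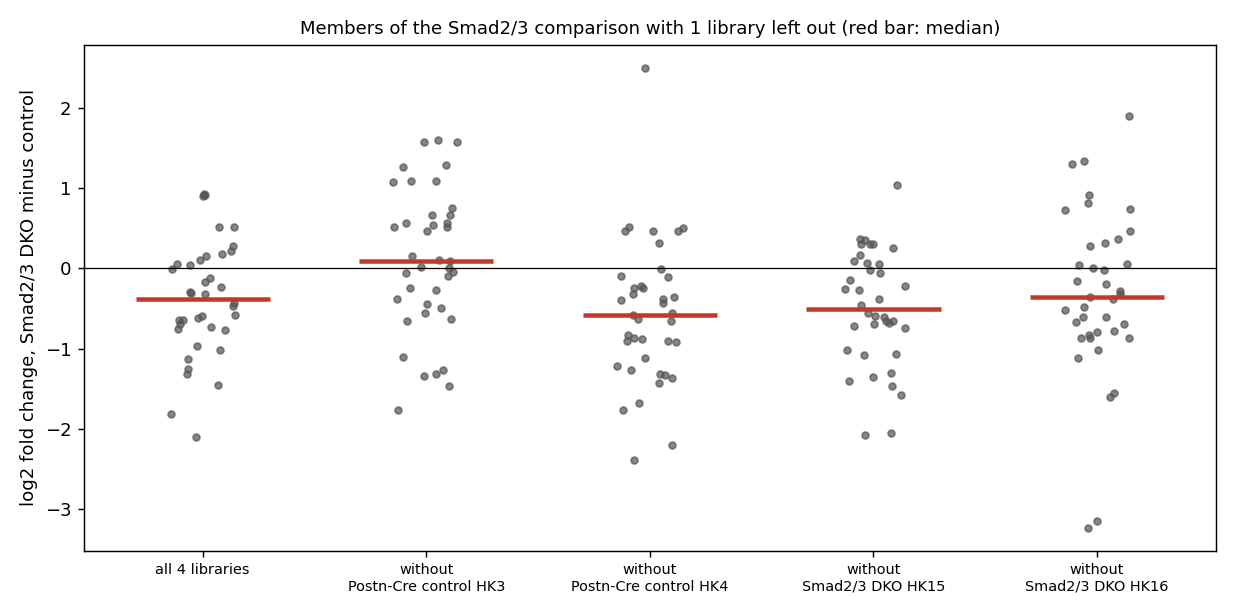
Log2 fold changes of the members in the Smad2/3 comparison with all 4 libraries and with each left out, with 1 point per gene and a red bar at the median. The median is -0.37 with all libraries and 0.09 without control HK3, and it stays below 0 without each of the other 3.

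The knockout effects were then set against each other in a fit of all 8 libraries, as the Smad2/3 effect minus the Tgfbr1/2 effect. Of 39 members, 3 were lower and 0 higher by edgeR, against 1.17% and 0.664% of 17770 genes. At an unadjusted p below 0.05, 9 were lower and 1 higher (all genes 9.51% and 7.89%), and DESeq2 called 7 lower and 0 higher (all genes 4.46% and 2.54%). The 3 were Ifi202b (adjusted p = 0.0115), which rose in the Tgfbr1/2 DKO, Ifi204 (-1.88 ± 0.34, adjusted p = 0.0224), which fell in the Smad2/3 DKO, and Isg20 (-1.41 ± 0.31, adjusted p = 0.0491), which passed in neither comparison alone. For H2-D1 and H2-K1 the differences were -1.25 ± 0.30 (adjusted p = 0.0613) and -1.06 ± 0.28 (adjusted p = 0.0828), outside the threshold. Both passed with DESeq2 and without the low-count filter, and H2-D1 also with RLE factors and without control HK7. Leaving out 1 library gave an adjusted p for Isg20 of 0.07 to 0.208. For Ifi204 it was above 0.05 without HK3 (0.0534), HK15 (0.0718), HK16 (0.0676), control HK7 (0.0549) or the Tgfbr1/2 DKO library HK4 (0.0756). Without HK3, HK15 or the Tgfbr1/2 DKO library HK4, 1 member was called lower, Ifi202b.

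The control groups, which differ in driver and run, differed in 20 of the 39 members. The p200 genes, Gbp3, B2m and 4 antiviral and sensor genes were higher in the Postn-Cre controls, and the 3 immunoproteasome genes, Tap1, Tapbp, H2-D1, Irf1 and 4 effectors were lower. Of 39 members, 9 were higher and 11 lower, against 16.6% and 17.3% of 16568 genes. The median of the members was -0.20 and that of all genes -0.07; the members' median was -0.61 without HK3, 0.08 without HK4 and -0.54 with library totals. This comparison uses the same control libraries as the knockout comparisons, so its values are not independent of theirs. Driver and run cannot be told apart.

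Higher in the Postn-Cre controls were Ifi204 (2.53 ± 0.24, adjusted p = 0.00136), Ifi203 (2.39 ± 0.30, adjusted p = 0.00216), Ifi44 (3.27 ± 0.35, adjusted p = 0.0017), Ifit1 (1.74 ± 0.38, adjusted p = 0.0119) and B2m (1.07 ± 0.21, adjusted p = 0.00835). Ifi202b had 66 counts against 4 (ratio 19.7, 95% counting interval 7.33 to 74.3; adjusted p = 0.039), and Gbp3, Oasl2 and Ifih1 were the others, at 1.22, 1.17 and 0.87. Lower were all 3 immunoproteasome genes, Psmb9 (-3.29 ± 0.63), Psmb10 (-2.58 ± 0.51) and Psmb8 (-1.34 ± 0.33), with adjusted p = 0.00789, 0.00824 and 0.0192. Their constitutive partners Psmb6 (-1.14) and Psmb5 (-0.90) were lower too, whereas Psmb7 was at 0.06 (adjusted p = 0.844). Irf1 (-2.84 ± 0.36, adjusted p = 0.00224), Tapbp (-1.37 ± 0.28), Tap1 (-1.34 ± 0.38) and H2-D1 (-1.04 ± 0.23) were lower with adjusted p up to 0.0321, and H2-K1 was at -0.31 (adjusted p = 0.26). The lower effectors were Mx1 (-3.12), Ifi35 (-1.59), Isg15 (-1.58) and Ifi27l2a (-1.37).

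Scaling mattered in this comparison. With library totals in place of trimmed-mean (TMM) scaling, the median of all genes moved from -0.07 to -0.41, and the calls were 5 higher and 14 lower. The calls of Ifih1, Oasl2, Ifi202b and Gbp3 were lost, and Ifi203, Ifi204, Ifi44, Ifit1 and B2m stayed higher. Leaving out control HK3 gave 5 higher, with B2m at an adjusted p = 0.0546, and leaving out HK6 or HK7 gave 7 lower. The calls of Ifih1, Gbp3, Oasl2 and Mx1 were also lost without HK3, that of Ifi202b without HK4 or HK7, those of Ifih1, Mx1 and Isg15 without HK6 or HK7, that of Oasl2 without HK6 and that of Gbp3 without HK7. Psmb9, Psmb10, Irf1, Tapbp and H2-D1 were called lower without each of the 4 controls in turn, while Psmb8 and Tap1 lost their calls without HK6 or HK7 (adjusted p up to 0.144 and 0.118).

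**Figure D5:**
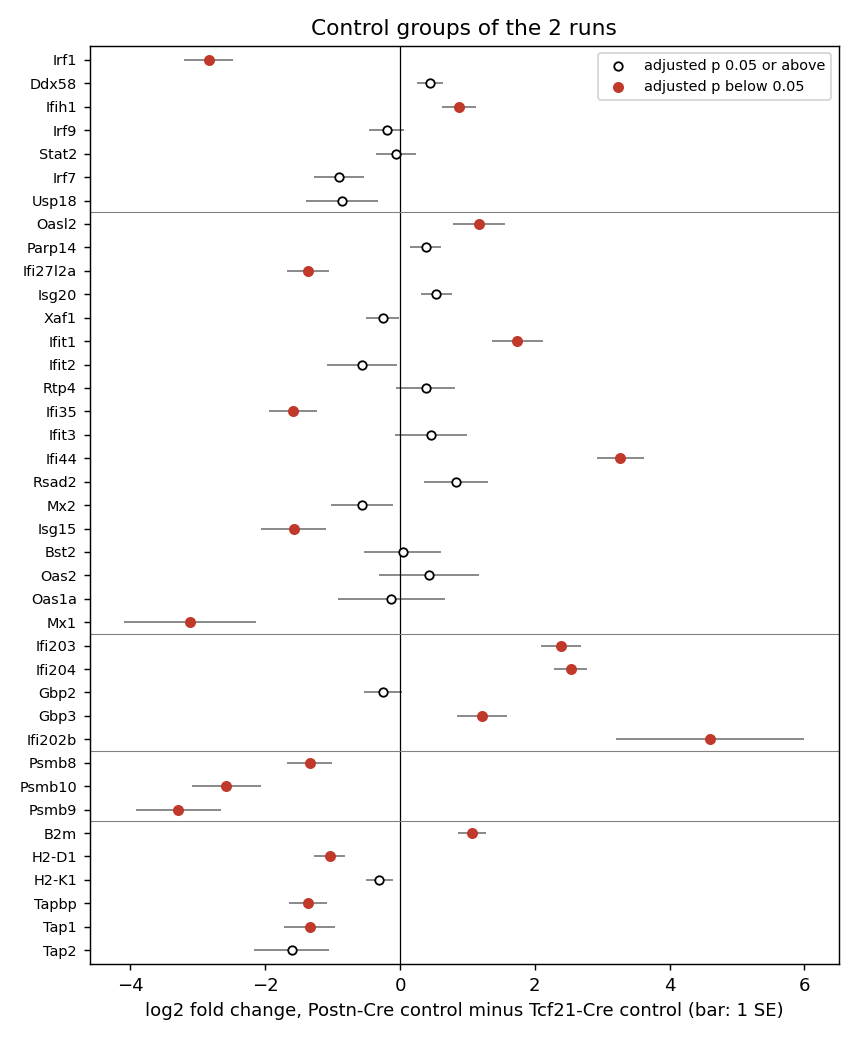
Log2 fold change of each member between the control groups, Postn-Cre minus Tcf21-Cre, with bars of 1 SE and filled points for an adjusted p below 0.05. The p200 genes lie to the right, from 2.39 to 4.60, and the immunoproteasome genes to the left, from -3.29 to -1.34.

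The rest of the pathway was followed through 125 further genes, of which 121 were in the tables. Interferon genes themselves were near 0: of 11 listed, none exceeded 0.609 CPM in any library, and Ifng, Ifne and Ifna1 were at 0 in all 8, which allows up to 0.1397 CPM in the shallowest library. In the Smad2/3 comparison 3 of 102 tested genes fell and 0 rose by edgeR, against 0.844% and 0.451% of all genes. By unadjusted p 6 were higher and 15 lower (all genes 6.21% and 7.35%), and DESeq2 called 3 higher and 10 lower (all genes 1.96% and 2.76%). The 3 were Lgals3bp, a secreted glycoprotein (311 and 249 CPM against 84.5 and 77.8; -1.85 ± 0.18, adjusted p = 0.0011), the membrane protein gene Ly6e (-1.11 ± 0.19, adjusted p = 0.0173) and Lgals9, which encodes galectin-9 (-1.35 ± 0.26, adjusted p = 0.0347).

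Of 108 pathway genes tested in the Tgfbr1/2 comparison, 9 rose and 1 fell, against 2.64% and 1.31% of all genes. By unadjusted p 28 were higher and 8 lower (all genes 11.3% and 8.73%), and DESeq2 called 14 higher and 2 lower (all genes 4.49% and 2.56%). Ifitm3 and Ifitm2, membrane proteins that block virus entry, were the most abundant. Ifitm3 measured 1191 and 936 CPM in Tcf21-Cre controls against 2271 and 2151 CPM in the DKO (1.14 ± 0.22, adjusted p = 0.0228) and Ifitm2 777 and 872 CPM against 1696 and 1602 CPM (1.08 ± 0.22, adjusted p = 0.0266). Ifitm1 rose too (1.34, adjusted p = 0.0381). The p200-related DNA sensor Aim2 rose from 1.16 and 1.98 to 9.17 and 8.18 CPM (2.53 ± 0.40, adjusted p = 0.00883). In antigen presentation, the chaperone Calr (1.21 ± 0.21, adjusted p = 0.0154), the class I gene H2-Q1 (1.50 ± 0.36, adjusted p = 0.0477) and the class II invariant chain Cd74 (1.61 ± 0.33, adjusted p = 0.0379) rose. Cd74 is made chiefly by antigen-presenting cells; the sums of macrophage, dendritic cell and lymphocyte markers are given above. The receptor chain Ifngr2 (0.80, adjusted p = 0.0412) and the adaptor Myd88 (0.87, adjusted p = 0.0486) also rose. Gbp6 fell from 43.1 and 38.9 to 16.2 and 19.5 CPM (-1.11 ± 0.22, adjusted p = 0.023). Apart from DESeq2, the alternative analyses are not given for pathway genes, and several of these calls lay near the threshold. The member H2-K1, also near it, lost its call with RLE factors and without robust estimation.

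The difference between the knockout effects passed for 5 of 110 pathway genes, among them Lgals3bp (-1.96 ± 0.26, adjusted p = 0.00525), Ly6e (-1.62), Ifitm2 (-1.25) and Ifitm3 (-1.35). All 5 were lower and 0 were higher, against 1.17% and 0.664% of all genes. By unadjusted p 22 were lower and 5 higher (all genes 9.51% and 7.89%), and DESeq2 called 11 lower and 0 higher (all genes 4.46% and 2.54%). Between the controls, 26 of 106 pathway genes were higher and 15 lower in the Postn-Cre group, against 16.6% and 17.3% of all genes. The kinases Jak2 (1.48) and Jak1 (1.12) and the receptor Ifnar2 (0.95) were higher and the kinase Tyk2 (-2.22) lower. Ifitm2 (-2.79) and the feedback inhibitor Socs3 (-3.39, 13.9 and 12.2 CPM against 146 and 198) were among the genes lower in the Postn-Cre controls.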

How the data were processed

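The authors deposited each estimated count per Ensembl gene for the 8 libraries, 38087 genes in each of 2 tables; 12.5% of values above 0 were whole. The genome build was mm10 (submitters' processing notes). Which aligner and counter made the values, and how shared reads were treated, is not given in the sources used here. Libraries came from amplified total RNA, per the labels' protocols, which describe no step that marks strand, so a gene and an overlapping antisense gene cannot be told apart. Amplified reads are not independent molecules, and intervals and floors cover counting error only. The authors also deposited log2 fold changes, each the difference between group means of their normalised log2 values, without a test.

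Counts were rounded and entries sharing a symbol were summed (278 symbols from 3966 entries). CPM is the count divided by the library total, times 1000000. Positions and exon lengths are from GENCODE M21, and promoters from RefSeq (GRCm38.p6). A fit used the 4 libraries of its comparison, and the difference to all 8 as an interaction, with edgeR 4.0.16 in R 4.3.3 (filterByExpr, TMM, robust quasi-likelihood F test, two-sided), with Benjamini-Hochberg adjustment over all tested genes and a threshold of 0.05. The fits were run on simulated counts with the same dispersion for every gene. Only the sign of recovered changes had to be right, so the rate of false calls was not judged. SE is the size of the log2 fold change divided by the square root of F. Alternatives were RLE factors, library totals, no low-count filter, DESeq2 1.42.0, no robust estimation, 1 entry per symbol, all 8 libraries in 1 fit, and leaving out each library.

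Members with a call in any comparison and the 3 most abundant of each role are given by library. From each pathway list, up to 4 called genes and the 2 most abundant, and from each marker list the 3 most abundant, could be named. The members and all lists were chosen with earlier results of these data known.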

Additional observations from a re-analysis of the deposited data

Results flagged for a closer look

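The Smad2/3 effect and the Tgfbr1/2 effect of 3 members differed by the interaction test of edgeR. The difference of the log2 effects was -8.14 for Ifi202b (adjusted p = 0.0115), where the Tcf21-Cre controls held 4 counts and the fitted size depends on the prior count. It was -1.88 for Ifi204 (adjusted p = 0.0224), which was lower in both Smad2/3 DKO libraries than in both controls and overlapped in the Tgfbr1/2 comparison. For Isg20 it was -1.41 (adjusted p = 0.0491), with both Smad2/3 DKO libraries below and both Tgfbr1/2 DKO libraries above their controls. The effects of run, driver and target cannot be told apart here, and the labels give no strain.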

How the results depend on the processing

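No paired analysis was possible because the groups compared share no replicate number. Members called lower in the Smad2/3 comparison numbered 2 with RLE factors and with all 8 libraries in 1 fit, 6 without the low-count filter and 7 with DESeq2, against 1; leaving out a library gave 1 to 5. In the Tgfbr1/2 comparison, members called lower were 0 with RLE factors, library totals, no robust estimation and 1 entry per symbol, 4 without the filter and 3 with DESeq2, against 1, and 0 to 3 with a library left out. Members called higher were 1 without robust estimation, against 3, and 1 to 2 with a library left out. For the difference, members called lower were 7 without the filter and with DESeq2, against 3, and 1 to 2 with a library left out; 1 was called higher without the filter, against 0. Between the controls, 5 were called higher with library totals, against 9, and 5 to 10 with a library left out; called lower were 7 to 15, against 11. With library totals the median of all genes for the difference was 0.16, against 0.01. No called member changed direction under any alternative. Counted over called members and alternatives, calls held 11 times and were lost 0 times in the Smad2/3 comparison. They held 27 times and were lost 17 times in the Tgfbr1/2 comparison. The counts were 27 and 15 for the difference and 196 and 24 between the controls. The cause of these losses was not tested. Shares of all genes called were counted only for the main fits and, outside the comparison of the controls, for DESeq2. Counts of members called under the other alternatives therefore have no such share beside them. Where a group was left with 1 library, its variation was taken from the remaining groups of the fit. With 2 libraries per group, and with members under 3 CPM resting on few counts, smaller changes were not detectable.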

Other observations

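Other genes of the p200 cluster on chromosome 1 were read after the members' values were seen. Mndal, which overlaps Ifi203, was at 182 and 186 CPM in the Postn-Cre controls, 98.5 and 137 in the Smad2/3 DKO, 57.8 and 41.5 in the Tcf21-Cre controls and 29.9 and 32.6 in the Tgfbr1/2 DKO. It was below the controls in both knockouts, without passing (-0.70, adjusted p = 0.114, and -0.57, adjusted p = 0.163). Mnda was at 152 and 137, 97.2 and 118, 73.1 and 45, and 56 and 61.7 CPM, and Ifi205 at 233 and 169, 136 and 162, 110 and 43.7, and 114 and 113 CPM. Mnda, Mndal, Ifi205 and Aim2 were higher in the Postn-Cre than in the Tcf21-Cre controls (log2 differences 1.64, 2.23, 1.74 and 2.79). Their adjusted p was up to 0.013. Pydc3 (-0.24, adjusted p = 0.851) and Pydc4 (1.25, adjusted p = 0.435) did not pass between the controls. Nor did the neighbours Cadm3 (-0.39, adjusted p = 0.696) and Darc (-0.77, adjusted p = 0.541). Pyhin1 and Fcer1a were too low to test.

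In the authors' deposited tables, the log2 fold change had the same sign as the edgeR estimate for 36 of 38 members tested against the Postn-Cre control. Against the Tcf21-Cre control it did so for 37 of 39. The exceptions had a deposited value of 0.00: Psmb9 and Tap2 in the former comparison, and Ifi44 and Mx1 in the latter. The authors' deposited table of the Smad2/3 libraries gives -1.39 for Ifi204. For the Tgfbr1/2 libraries, the authors' deposited table gives 2.74 for Ifi202b, 0.95 for H2-D1, 0.85 for H2-K1 and -1.24 for Ifi203.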
